A study of Mus musculus with 4 samples.

Results

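Hox genes were read in 4 libraries of mouse aortic cells, by the cluster each gene lies in and by its paralogue number. The mouse annotation names 39 protein-coding Hox genes, 11 of the Hoxa cluster, 10 of Hoxb, 9 of Hoxc and 9 of Hoxd. Of these, 24 had a row among the 32948 genes of the deposited table and are described here, 8 in Hoxa, 8 in Hoxb, 4 in Hoxc and 4 in Hoxd. The other 15 were not analysed here: Hoxa6, Hoxa11, Hoxa13, Hoxb1, Hoxb13, Hoxc4, Hoxc10, Hoxc11, Hoxc12, Hoxc13, Hoxd1, Hoxd3, Hoxd9, Hoxd12 and Hoxd13. The rule used gene names and a row in the table, and every row of the table had reads in some library (the lowest sum over the 4 libraries was 0.01 counts).

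The cells were taken from the first stretch of the aorta and its arch in Wnt1-Cre;Rosa26-mTmG mice. In this reporter a cell makes membrane tdTomato until Cre acts and membrane GFP thereafter, and all 4 libraries carried both alleles. Each of 2 suspensions, 1 from a female sample and 1 pooled from 2 male samples, was sorted on these proteins alone into GFP cells and tdTomato cells, and the polyadenylated RNA of each sort was profiled with SMART-seq. The groups were GFP (1 female and 1 male library) and tdTomato (1 female and 1 male library), no age was given, and sex cannot be told apart from suspension. GFP marks cells with a history of Wnt1-Cre, which acts in the neural crest and the dorsal neural tube, and the tdTomato sort holds every other kind of cell released from the wall. The submitters labelled all 4 libraries as vascular smooth muscle cells.

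Hox genes encode transcription factors with a DNA-binding homeodomain, and the order of the genes along a cluster mirrors the body axis. Low paralogue numbers sit at one end of a cluster and act nearest the head, and high numbers act towards the tail and in the limbs. Neural crest of the hindbrain carries a Hox code into the pharyngeal arches. Hoxa2 and Hoxb2 mark the second arch, and Hoxa3 and Hoxb3 the third and more posterior arches. The arteries of the third and more posterior arches contribute to the aortic arch and its branches.

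Library totals ran between 10094239 and 13911168 counts. At least 10 counts were reached by 12008 genes in female GFP cells and 9517 in male GFP cells, against 16227 in female and 15669 in male tdTomato cells. By counting error alone, a gene at 0 may lie at up to 0.24 and 0.323 CPM in the female and male GFP libraries and 0.203 and 0.218 CPM in the female and male tdTomato libraries (3 counts; CPM is counts scaled to a common library size). Smooth muscle markers summed to 16740 and 14120 CPM in GFP cells and to 12810 and 12190 CPM in tdTomato cells, with none of the 8 at 0. Endothelial markers summed to 64.8 and 58.8 CPM in GFP cells and to 438 and 282 CPM in tdTomato cells, and 9 of 10 were lower in GFP by 2-fold or more in each suspension, with Kdr and Egfl7 at 0 in both GFP libraries. Macrophage markers summed to 30.8 and 0.43 CPM in GFP cells and to 27.6 and 76.9 CPM in tdTomato cells, with 4 of 6 lower by that measure and Cd68, Mrc1 and Lyz2 at 0 in both GFP libraries. Fibroblast markers summed to 3707 and 1649 CPM in GFP cells and to 4280 and 4733 CPM in tdTomato cells, with 3 of 8 lower. Schwann cell markers summed to 260 and 110 CPM in GFP cells and to 8.31 and 11.8 CPM in tdTomato cells. The part of these cell types in the Hox values was not tested, and in bulk libraries fewer cells of a type and less RNA per cell cannot be told apart.

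Hox RNA was scarcer in GFP than in tdTomato cells of both suspensions. All members together had 501 and 700 counts in female and male GFP cells and 2644 and 3000 counts in female and male tdTomato cells. Their summed level was 40.1 and 75.3 CPM in GFP cells and 178.7 and 217.9 CPM in tdTomato cells. GFP thus held 0.224 of the tdTomato level in the female suspension (95% counting interval 0.204 to 0.247) and 0.346 in the male one (0.318 to 0.375). Each ratio has 1 library on a side and no test, and the intervals cover counting error only, since PCR copies without molecular identifiers are not independent molecules. Without Hoxb3 the ratio was 0.150 in the female and 0.224 in the male suspension. Members with at least 10 counts numbered 3 in female and 5 in male GFP cells, and 15 in female and 13 in male tdTomato cells. Detection over the whole table was also lower in GFP, and its part in these counts was not tested.

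**Figure D1:**
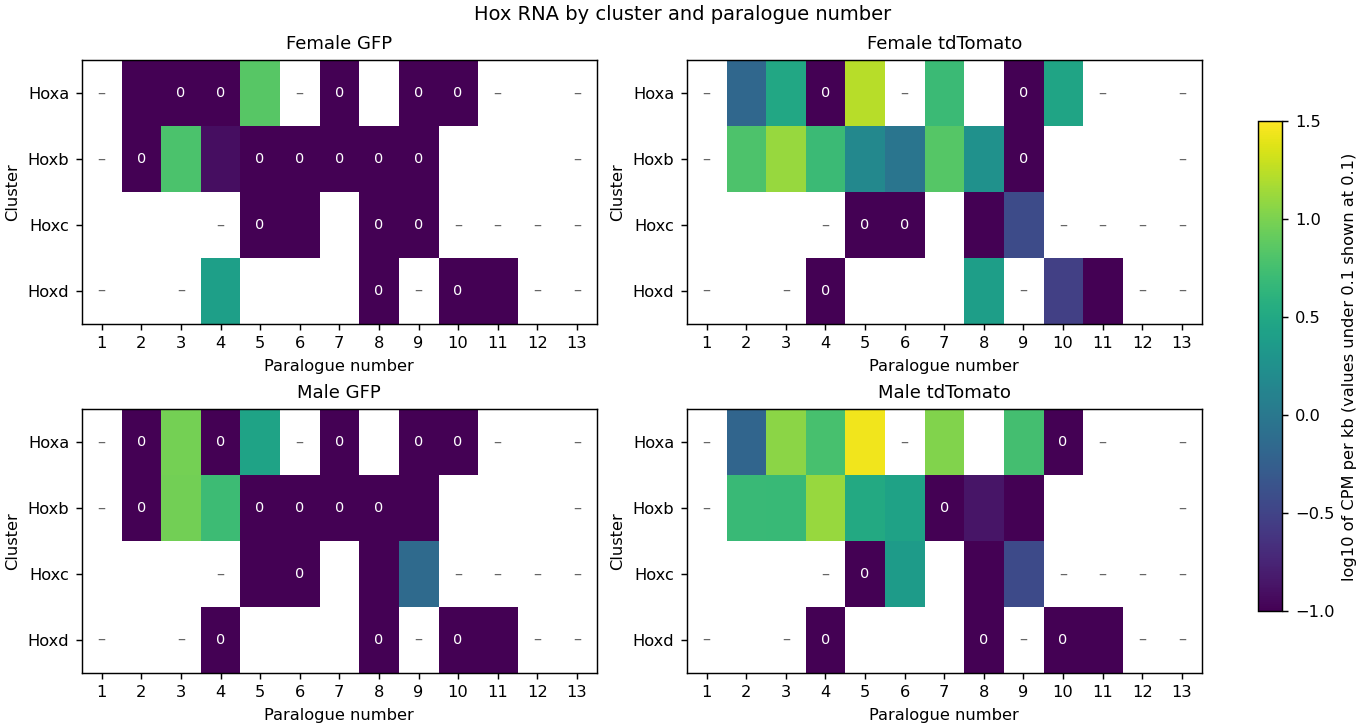
Level of each Hox gene by cluster (rows) and paralogue number (columns) in the 4 libraries, as log10 of CPM per kilobase of the longest annotated transcript, with values under 0.1 drawn at 0.1. A 0 marks a gene with 0 counts, a dash a gene not shown here, and a blank a position with no gene in the annotation. Coloured fields in the GFP panels lie mostly at paralogue numbers 3 to 5, while those in the tdTomato panels extend to both sides.

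The Hox RNA of GFP cells came almost wholly from paralogue groups 3, 4 and 5. Per kilobase of transcript, these groups made up 99.3% of the Hox level in female and 96.5% in male GFP cells, and 52.7% in female and 70.7% in male tdTomato cells. Their genes with at least 10 counts were Hoxa5, Hoxb3 and Hoxd4 in female GFP cells, and Hoxa3, Hoxa5, Hoxb3 and Hoxb4 in male GFP cells. Only Hoxa5 and Hoxb3 reached 10 counts in both. Groups 6 and above had 2 and 22 counts in female and male GFP cells and 615 and 699 counts in female and male tdTomato cells. Groups 1 and 2 had 1 and 0 counts in female and male GFP cells and 567 and 229 counts in female and male tdTomato cells. The bounds of this range were drawn after the values had been seen, so these shares and counts are a description with no test.

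**Figure D2:**
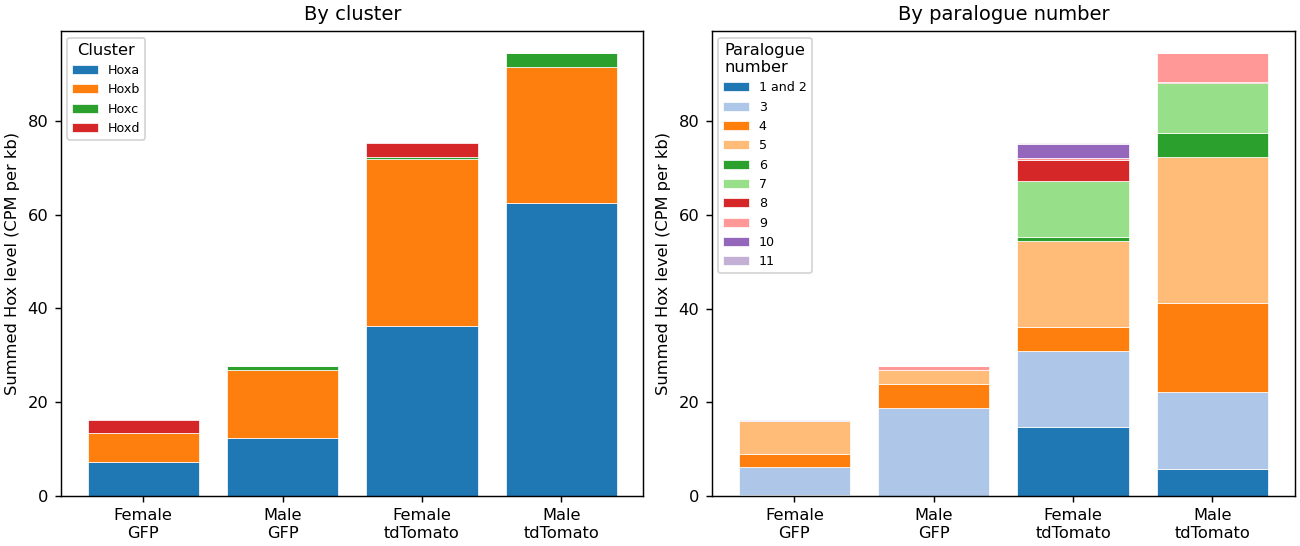
Summed Hox level per library in CPM per kilobase, split by cluster (left) and by paralogue number (right), 1 bar per library. The GFP bars reach 16.1 and 27.7 CPM per kilobase and the tdTomato bars 75.3 and 94.6.

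The mean paralogue number, weighted by CPM per kilobase, was 4.07 in female and 3.60 in male GFP cells, and 4.55 in female and 4.82 in male tdTomato cells. Both GFP values lay below both tdTomato values, but this order did not hold within Hoxa. There the mean was 4.98 in female and 3.46 in male GFP cells, and 4.60 in female and 5.20 in male tdTomato cells, so female GFP lay above female tdTomato. Within Hoxb it was 3.02 in female and 3.37 in male GFP cells, and 4.16 in female and 3.83 in male tdTomato cells. In female GFP cells Hoxa5 held 166 of the 167 Hoxa counts and Hoxb3 245 of the 249 Hoxb counts. The means of female GFP within Hoxa and Hoxb are thus close to the numbers of single genes. Without Hoxa5 the female GFP value over all clusters was 3.34. Hoxa supplied 44.3% and 44.1% of the Hox level in GFP cells and 48.3% and 66.1% in tdTomato cells, and Hoxb supplied 39.0% and 52.5% in GFP cells and 47.4% and 30.9% in tdTomato cells. The Hoxc members made up at most 3.09% of any library. Hoxd made up 16.3% in female GFP cells, nearly all of it Hoxd4, and 3.76% or less in the other 3 libraries.

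Bases just before the start of transcription are shown for 4 genes that stand for the patterns described next, from the RefSeq promoter table of build GRCm38.p6, which holds 12 of the 24 members. Each run is 250 bases long, 5′ to 3′ on the strand of the gene, with every CG dinucleotide in capitals, because mouse promoters are commonly grouped by how many of these they hold. Hoxa5 (chr6:52204588-52204837, minus strand) was read in all 4 libraries, Hoxb4 (chr11:96318017-96318266, plus strand) in both colours, Hoxa7 (chr6:52218574-52218823, minus strand) in tdTomato alone and Hoxd4 (chr2:74721728-74721977, plus strand) in female GFP alone.
Hoxa5: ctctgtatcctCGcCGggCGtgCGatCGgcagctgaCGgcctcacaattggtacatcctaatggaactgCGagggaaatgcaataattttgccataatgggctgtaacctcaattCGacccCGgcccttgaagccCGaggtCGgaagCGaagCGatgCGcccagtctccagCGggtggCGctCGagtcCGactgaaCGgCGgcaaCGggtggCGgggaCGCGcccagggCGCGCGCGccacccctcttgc
Hoxb4: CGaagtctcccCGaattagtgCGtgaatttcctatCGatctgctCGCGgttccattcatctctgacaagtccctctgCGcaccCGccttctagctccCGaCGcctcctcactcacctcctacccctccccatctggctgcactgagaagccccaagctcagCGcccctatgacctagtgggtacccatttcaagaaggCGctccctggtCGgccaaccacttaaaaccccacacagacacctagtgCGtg
Hoxa7: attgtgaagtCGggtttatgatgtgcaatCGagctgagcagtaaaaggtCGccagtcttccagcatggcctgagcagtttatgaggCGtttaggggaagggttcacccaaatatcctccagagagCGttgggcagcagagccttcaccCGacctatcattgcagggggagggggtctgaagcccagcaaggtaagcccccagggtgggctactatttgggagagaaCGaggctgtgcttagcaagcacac
Hoxd4: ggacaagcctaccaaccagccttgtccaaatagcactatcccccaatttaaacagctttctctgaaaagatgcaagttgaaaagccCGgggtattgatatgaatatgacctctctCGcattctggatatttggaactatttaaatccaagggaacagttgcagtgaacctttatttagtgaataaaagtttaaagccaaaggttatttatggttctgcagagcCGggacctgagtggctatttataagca
The window held 28 CG dinucleotides for Hoxa5, 14 for Hoxb4, 7 for Hoxa7 and 3 for Hoxd4. Among all 32851 promoters of the table the median was 6, and 29.4% had at least 14. The 12 Hox windows ranged from 2 (Hoxd11) to 28, with a median of 7, and the others with at least 14 were Hoxa3 (18) and Hoxd10 (20). Of those 4 genes, Hoxa3, Hoxa5 and Hoxb4 had at least 10 counts in 1 or both GFP libraries, and Hoxd10 stayed under 10 counts everywhere. Of the windows with fewer, only that of Hoxd4 belonged to a gene with at least 10 counts in a GFP library (83 in female GFP). Hoxb3, read in both GFP libraries, and Hoxc9, with 16 counts in male GFP, have no window. For each gene 1 entry of the promoter table was used, so other starts of a gene are not covered. The Hoxa3 window (chr6:52213068-52213317, minus strand) lies between those of Hoxa5 and Hoxa7, so it belongs to a start upstream of Hoxa5. A link between CG number and GFP counts was not tested. Searched on both strands, CCAAT occurred in 6 of the 12 windows and in 33.9% of all promoters. TATAAA occurred in 2 (Hoxb8 and Hoxd4) and in 12.4% of all, and AGGTCA, the half-site of retinoic acid receptors, in 4 (Hoxb4, Hoxd4, Hoxd8 and Hoxd10) and in 14% of all. A match of letters is a description and does not show that a factor binds.

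Hoxa5 and Hoxb3 alone reached 10 counts in all 4 libraries, 2 of the 19 members that did so in any library. Of all genes with 10 counts in any library, 35.4% of 19849 did, as did 24.1% of the 9057 protein-coding genes whose highest library held 10 to 1000 counts, the range of these 19 members. Hoxa5, a regulator of lung and vertebral development and the member of the CG-rich window above, had 166 and 49 counts in female and male GFP cells and 470 and 721 counts in female and male tdTomato cells. These counts equal 13.3 and 5.27 CPM in GFP cells and 31.8 and 52.4 CPM in tdTomato cells. Both GFP libraries lay below both tdTomato libraries. GFP held 0.418 of the tdTomato level in the female suspension (0.348 to 0.5002) and 0.101 in the male one (0.0737 to 0.135). On the log2 scale GFP over tdTomato averaged -2.26 ± 1.43 (SD, n = 2 suspensions; edgeR quasi-likelihood adjusted p = 1).

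Hoxb3, which acts with Hoxa3 in the pharyngeal organs, was the highest member in CPM summed over the libraries, although Hoxa5 was higher per kilobase and in counts. It stood at 19.6 and 29.9 CPM in female and male GFP cells and at 41.9 and 15.5 CPM in female and male tdTomato cells. The colours overlapped: female tdTomato was the highest library and male tdTomato the lowest. The ratio of GFP over tdTomato was 0.468 in the female suspension (0.402 to 0.543) and 1.93 in the male one (1.61 to 2.32), and the mean log2 ratio was -0.07 ± 1.44 (SD, n = 2 suspensions; edgeR adjusted p = 1). In the reference annotation its exons share 2250 bases with the antisense gene Hoxb3os, and the kit does not mark strand, so reads of the pair cannot be told apart. Hoxb3os stood at 22.5 and 13.1 CPM in GFP cells and at 30.1 and 3.41 CPM in tdTomato cells, and was likewise highest in female and lowest in male tdTomato.

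Hoxa3, essential for the third arch and its artery, was absent from 1 library. It had 0 counts in female and 24.4 CPM in male GFP cells, and 8.11 CPM in female and 30.3 CPM in male tdTomato cells. In each colour the male library was above the female one, and the colours overlapped. Female tdTomato was 33.8-fold above female GFP taken at 3 counts (exact lower limit 27.05). In the male suspension GFP held 0.806 of the tdTomato level (0.683 to 0.950). Its exons share 503 bases with antisense Hoxaas2, which stood at 66.7 and 14.1 CPM in GFP cells and at 75.3 and 55.3 CPM in tdTomato cells. Hoxa3 exons also share 482 bases with Gm28308 on the same strand and 437 bases with antisense Gm29430, among others.

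Hoxb4, which in the mouse patterns neck vertebrae and promotes blood stem cell growth, had the same order of libraries within each colour. It had 4 and 123 counts in female and male GFP cells (0.32 and 13.2 CPM) and 191 and 464 counts in female and male tdTomato cells (12.9 and 33.7 CPM). GFP was below tdTomato in each suspension, yet male GFP lay just above female tdTomato. The ratio of GFP over tdTomato was 0.0248 in the female suspension (0.00669 to 0.0645) and 0.3925 in the male one (0.319 to 0.480). Its mean log2 ratio was -3.05 ± 2.43 (SD, n = 2 suspensions; edgeR adjusted p = 1). Hoxc9, a gene of the trunk, was near the detection limit throughout, with 0 and 16 counts in female and male GFP cells and 13 and 12 counts in female and male tdTomato cells.

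**Figure D3:**
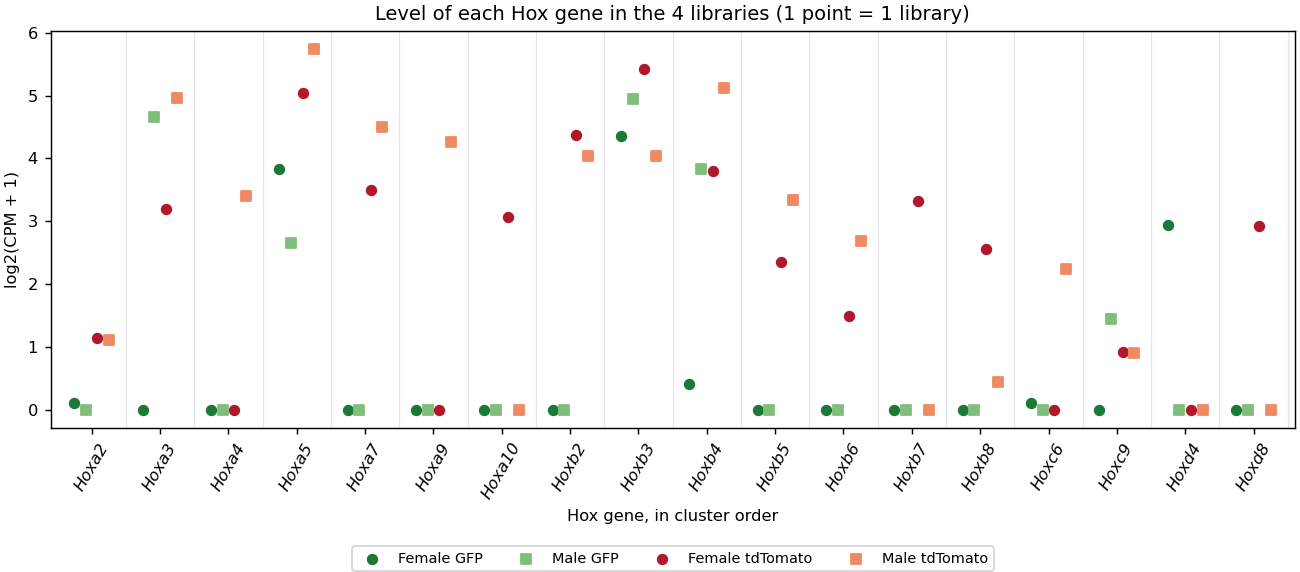
Level of 18 Hox genes with at least 10 counts in any library, as log2(CPM + 1), 1 point per library, in cluster order. Hoxa2, Hoxa7, Hoxb2, Hoxb5 and Hoxb6 have raised points in both tdTomato libraries and none in GFP, and 7 genes have 1 raised point.

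Hoxa2, Hoxa7, Hoxb2, Hoxb5 and Hoxb6 had at least 10 counts in both tdTomato libraries and at most 3 in both GFP libraries. These 5 are 26.3% of the 19 members, beside 8.5% of all genes with 10 counts in any library and 14.3% of the protein-coding genes in the same count range. No member showed the reverse, beside 0.166% of all genes. Hoxb2, a gene of the second arch and of the hindbrain, had 0 counts in both GFP sorts, and stood at 19.8 and 15.5 CPM in tdTomato cells. With GFP taken at 3 counts, female tdTomato was 82.5-fold and male tdTomato 48.0-fold above GFP (exact lower limits 66.65 and 38.7). Its exons share 953 bases with Hoxb3os.

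Hoxa7, a gene of the thoracic region, had 0 counts in both GFP sorts, and stood at 10.3 and 21.7 CPM in tdTomato cells. With GFP taken at 3 counts, these values were 42.8-fold and 67.1-fold above GFP (exact lower limits 34.4 and 54.2). Hoxa7 exons share 586 bases with antisense Hoxaas3. Hoxb5, known in the mouse for its part in endothelial and enteric crest development, was at 0 in GFP cells and at 4.12 and 9.15 CPM in tdTomato cells. Hoxb6, its neighbour, was at 0 in GFP cells and at 1.82 and 5.45 CPM in tdTomato cells. Hoxa2, the selector gene of the second arch, had 1 and 0 counts in GFP cells and 18 and 16 counts in tdTomato cells, or 1.22 and 1.16 CPM. The rule that picked these 5 genes leaves no room for the colours to overlap, so the gap between colours is no separate result. Hoxa2 lay within a few fold of the detection limit.

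No Hox gene passed the test over both suspensions. With Benjamini-Hochberg adjustment, edgeR's quasi-likelihood test called 0 of the 10 members that entered it and 0% of 15055 genes, and its lowest adjusted p was 0.577. Before adjustment p was under 0.05 for 5 members, the genes of the preceding paragraphs that GFP lacked, beside 8.6% of all genes in either direction and 8.31% lower in GFP. These 5 had been grouped by their counts in tdTomato and lack of them in GFP, and entered the test through tdTomato. They could thus only lie lower in GFP, and their number supports nothing further. DESeq2 called 3 of the 10 lower in GFP, beside 7.36% of all genes called lower. They were Hoxb2 (DESeq2 adjusted p = 0.00872), Hoxa7 (DESeq2 adjusted p = 0.0108) and Hoxb5 (DESeq2 adjusted p = 0.0381). All 3 had 0 counts in both GFP libraries and entered the tests through tdTomato, so they could only lie lower in GFP. limma-voom called 0 genes. The edgeR fit had 1 residual degree of freedom and a common dispersion of 1.47. Its spread comes only from how far the colour ratio of a gene differs between 2 suspensions, of different sex, pooled in part over all tested genes.

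Counted by size alone, 8 of the 19 members were lower in GFP by 2-fold or more in both suspensions (log2 ratio with a prior count of 2), or 42.1%, beside 19.8% of all genes and 30.2% of the protein-coding genes in the same count range. The 8 were Hoxa5, Hoxb4, the 5 genes that GFP lacked and Hoxb8, a trunk gene with 0 and 0 counts in female and male GFP cells and 72 and 5 in female and male tdTomato cells. No member was higher in GFP by that measure, beside 4.41% of all genes. In the female suspension alone 15 of 19 were lower, beside 39.6% of all genes and 49% of those in the count range. In the male one 11 of 19 were lower, or 57.9%, near the background of 47.4% of all genes and 60.7% of those in the count range. The members' median log2 ratio was -4.75 in the female and -1.72 in the male suspension, or -4.10 and -1.34 with absent genes at their bound, beside -0.32 and -0.81 over all genes. Members that reached 10 counts only through tdTomato had to lie lower in GFP, so these counts and medians are descriptions and support nothing further.

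**Figure D4:**
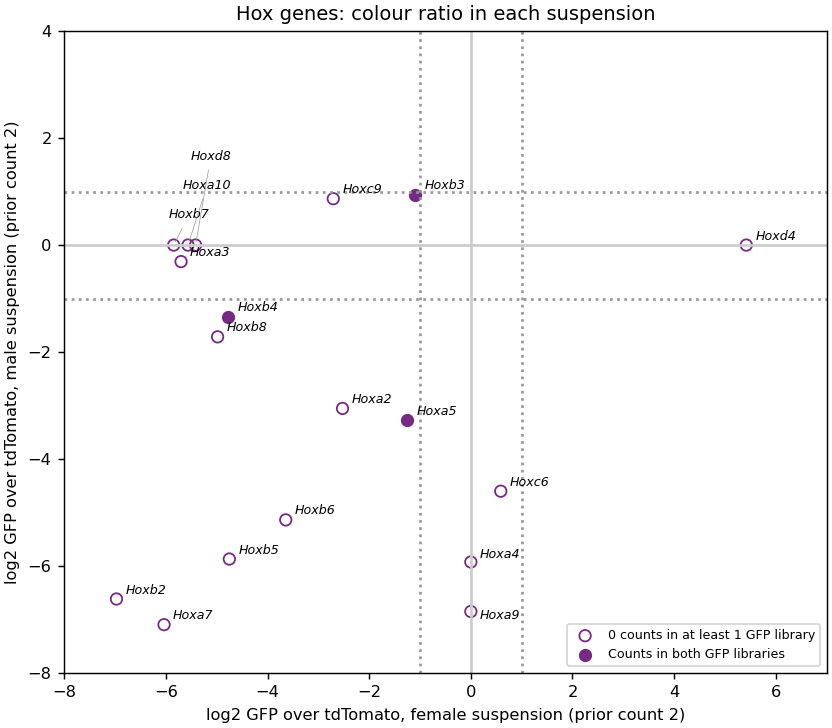
Log2 ratio of GFP over tdTomato (prior count 2) in the female suspension (x axis) and the male suspension (y axis) for 18 Hox genes with at least 10 counts in any library. Open circles have 0 counts in at least 1 GFP library, and dotted lines mark 2-fold. Hoxb3 is the only filled point above 0 on the y axis, at -1.09 on the x axis and 0.94 on the y axis.

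A single library held 8 of the 19 members, or 42.1%, with at least 10 counts there and at most 3 in each of the others. This pattern was shown by 16.2% of all genes with 10 counts in any library and by 14.9% of the protein-coding genes in the same count range. Hoxa9, a factor of blood progenitors and posterior tissues, had 251 counts (18.2 CPM) in male tdTomato and 0 elsewhere. Hoxa4 had 131 and Hoxc6 had 51 counts in male tdTomato, with 0 elsewhere but for 1 count of Hoxc6 in female GFP. Hoxb7 (133 counts), Hoxa10 (109 counts) and Hoxd8 (98 counts) were seen in female tdTomato alone. Of these named genes, all but Hoxa4 are trunk or posterior genes.

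Hoxd4, which patterns neck vertebrae, was the one member with at least 10 counts in a GFP library and at most 3 in each of the others. It had 83 counts (6.64 CPM) in female GFP and 0 in the other 3 libraries. Female GFP was 32.8-fold above female tdTomato taken at 3 counts (exact lower limit 26.06). In the annotation Hoxd4 exons share 1154 bases with Gm28230 and 388 bases with Hoxd3, both on the same strand, and 347 bases with antisense Hoxd3os1. Neighbours along a cluster were not always read together. In female tdTomato Hoxa10 was seen and Hoxa9 was not, while in male tdTomato Hoxa9 was seen and Hoxa10 was not. Hoxb7, between Hoxb6 and Hoxb8, was at 0 in male tdTomato, where Hoxb6 had 75 counts. Hoxb9, Hoxc5, Hoxc8, Hoxd10 and Hoxd11 had at most 8 counts in any library.

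The male suspension was then set against the female one within each colour. Hoxa3 and Hoxb4 were higher in male by 2-fold or more in both colours, 2 of 19 members, beside 5.77% of all genes and 5.38% of those in the count range. In GFP cells Hoxa3 was 101.7-fold higher in male with female taken at 3 counts (exact lower limit 82.04). There Hoxb4 was 41.3-fold higher in male (15.7 to 154). In tdTomato cells Hoxa3 was higher in male by 3.74-fold (3.04 to 4.62) and Hoxb4 by 2.61-fold (2.20 to 3.11). No member was lower in male by 2-fold in both colours, beside 9.23% of all genes. For this contrast edgeR called 0 of 10 members and 0% of 15055 genes, with 0 members and 1.72% of genes at an unadjusted p under 0.05. DESeq2 called 0 of the 10 members and 0.93% of genes, and limma-voom called 0 genes.

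Hoxa5 and Hoxb3 went opposite ways between the suspensions in the 2 colours. Male GFP held 0.397 of the female GFP level of Hoxa5 (0.282 to 0.549), and male tdTomato held 1.65 times the female tdTomato level (1.47 to 1.86). For Hoxb3 the ratio of male over female was 1.52 in GFP (1.28 to 1.82) and 0.369 in tdTomato (0.315 to 0.432). Of the 5 genes that GFP lacked, Hoxa7, Hoxb5 and Hoxb6 were 2.11-fold, 2.22-fold and 2.99-fold higher in male than in female tdTomato, and Hoxb2 was at 0.782 of the female level (0.652 to 0.936). The sort by sex interaction has no replicate and was not tested.

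Partners, neighbours and regulators of Hox genes were read next, 68 tested genes in 8 lists. edgeR called 0 of them, with 8 at an unadjusted p under 0.05, and DESeq2 called 5, all lower in GFP. These counts are near the background of 8.6% of all genes at that unadjusted p and 7.36% called lower by DESeq2. Of the genes called, Aldh1a1, Rdh10, Suz12 and Tshz3 had 0 counts in both GFP libraries. They entered the tests through tdTomato, so they could only lie lower in GFP. The counts of genes 2-fold lower in both suspensions, given next by list, stand beside 19.8% of all genes and 30.2% of protein-coding genes in the same count range, and those 2-fold higher beside 4.41% of all genes. Of the cofactors that bind DNA beside Hox proteins, 8 had at least 10 counts in any library, of which Meis2 and Pknox2 were lower in GFP by 2-fold or more in both suspensions and none was higher. Meis2 stood at 7.68 and 5.49 CPM in GFP cells and at 24.5 and 81.1 CPM in tdTomato cells. Meis1 stood at 27.3 and 38.0 CPM in GFP cells and at 25.7 and 26.0 CPM in tdTomato cells.

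Among non-coding genes inside the clusters, 3 of 9 were lower in both suspensions (Hotairm1, Hoxb5os and Hoxd3os1) and 1 was higher (Haglr), and all but Hotairm1 rest in 1 suspension on very few counts. Haglr had 2 counts in female GFP cells and 0 in female tdTomato cells, Hoxb5os had 0 counts in female GFP cells and 4 in female tdTomato cells, and Hoxd3os1 had 0 counts in male GFP cells and 3 in male tdTomato cells. Hotairm1 stood at 9.44 and 1.40 CPM in GFP cells and at 27.0 and 21.4 CPM in tdTomato cells. Among genes beside the clusters, 1 of 10 was lower (Snx10) and 1 was higher, Hibadh, an enzyme of valine breakdown next to Hoxa. It stood at 174.9 and 200.7 CPM in GFP cells and at 31.7 and 1.45 CPM in tdTomato cells. The other most abundant neighbours lay higher in GFP in both suspensions but reached 2-fold in 1 of them. The log2 ratio of GFP over tdTomato was 1.40 in the female and 0.92 in the male suspension for Cbx5, and 0.17 and 1.40 for Skap2.

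Of the retinoic acid pathway, which switches on head-end Hox genes in the embryo, 4 of 13 were lower in GFP by 2-fold in both suspensions, about the background share of 30.2%, and 1 was higher. Rdh10, which makes retinal from vitamin A, was at 0 in both GFP sorts and stood at 27.7 and 122.9 CPM in tdTomato cells (DESeq2 adjusted p = 0.00338). Dhrs3, which turns retinal back, was on the other side, at 65.6 and 55.4 CPM in GFP cells and 27.8 and 13.9 CPM in tdTomato cells. Aldh1a1, which makes retinoic acid, passed DESeq2 as well (adjusted p = 0.00549, lower in GFP).

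Of the Polycomb repressors, which keep Hox genes silent, 6 of 18 were lower in both suspensions, also close to 30.2%, and 1 was higher. Suz12, a core subunit, was lower by DESeq2 (adjusted p = 0.00549). Of the trithorax group and other opposing factors, 3 of 10 were lower and 0 higher. Ash1l, the most abundant, stood at 255 and 110.8 CPM in GFP cells and at 157.9 and 109 CPM in tdTomato cells.

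Of the early activators of Hox genes, 1 of 4 was lower in both suspensions. It was Egr2, which activates group 2 Hox genes in the hindbrain and is also an immediate early gene, at 5.84 and 0 CPM in GFP cells and 124 and 60.8 CPM in tdTomato cells (DESeq2 adjusted p = 0.0202). Other homeobox genes of crest and arch mesenchyme were lower in 2 of 12 cases (Dlx5 and Tshz3, the second with a DESeq2 adjusted p of 0.00457) and higher in 0. Prrx1, a mesenchymal regulator, stood at 247.6 and 0.323 CPM in female and male GFP cells and at 261.8 and 207 CPM in female and male tdTomato cells. Msx1 stood at 15.8 and 174.8 CPM in female and male GFP cells and at 10.1 and 18.1 CPM in female and male tdTomato cells. Both genes thus lay far apart in the 2 GFP libraries, in opposite directions.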

How the data were processed

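The members and gene lists were chosen with earlier results of these data known. The authors deposited expected counts, that is, reads per gene as estimated counts with up to 2 decimals and unscaled between libraries. The tools fastp, HISAT2 and StringTie and build GRCm39 are named, without versions, per the submitters' processing notes. Which program counted reads, and with which annotation, is not given in the sources used here. As kit SMART-Seq v4 is named, per the labels' protocols; it primes on poly(A) tails and does not mark strand.

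Symbols, transcript lengths and exon overlaps came from GENCODE M21 (build GRCm38), matched by identifier for 76.4% of genes. Not every exon overlap of the members is given in the text. Counts were rounded. CPM used the total of the tested genes after TMM scaling (factors 0.922 and 0.930 in female and male GFP, 1.08 in both tdTomato libraries). The filter filterByExpr of edgeR at a minimum of 10 counts left 15055 genes for testing. The main fit was a quasi-likelihood F test in edgeR 4.0.16 (R 4.3.3) on colour and sex together, with Benjamini-Hochberg adjustment at 0.05. Colours of 1 sex come from 1 suspension per the series' design, so suspension was a block, and the 2 pairs were the only replicates. DESeq2 1.42.0, limma-voom (limma 3.58.1), other scalings, no filter, no block and omission of each library were also run. The edgeR fit was tested on simulated data, where it recovered most large changes at a small spread and made no call at a spread near that of these libraries, so a lack of edgeR calls does not show a lack of difference. Folds of single genes carry exact 95% binomial counting intervals (scipy 1.17.1). Folds against 0 take that library at 3 counts, which leaves out counting error in the other library. The exact lower limits beside them come from the same binomial intervals. The text describes every member with at least 10 counts in any library. Of each other list the 3 most abundant tested genes could be named. Genes named beyond these, among them Pknox2, Aldh1a1, Suz12, Tshz3, Dlx5, Snx10, Hoxb5os, Hoxd3os1 and Haglr, were chosen after their values were seen, as were the patterns by library, the protein-coding count range and the paralogue range 3 to 5. Some genes are not reported here, although counts, sums and lists include them.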

Additional observations from a re-analysis of the deposited data

Results flagged for a closer look

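Hoxa5 differed in direction between the colours, with a log2 ratio of male over female of -1.31 in GFP and 0.72 in tdTomato. Hoxb3 differed in direction for both contrasts. Its log2 ratio of GFP over tdTomato was -1.09 in the female suspension and 0.94 in the male one. Its log2 ratio of male over female was 0.61 in GFP and -1.43 in tdTomato. Each ratio has 1 library on a side, and these differences were not tested. All counting intervals of these ratios lay on one side of 1, but they do not cover differences between animals or sorts.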

How the results depend on the processing

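The count of genes called for colour was 0 with edgeR, 1157 with DESeq2, and 0 with limma-voom, DESeq2 size factors, library totals, no filter and no replicate block. Omitting any one library, without the block, gave 0 to 0. For sex the main count was 0, DESeq2 called 140, edgeR with no filter called 2, no replicate block gave 0, and omission of single libraries gave 0 to 0. Hox genes 2-fold lower in GFP in both suspensions numbered 8, kept that count under both other scalings, a prior count of 0.5 and a minimum of 1 count, and numbered 5 at 4-fold. With 1 suspension left out (chosen after seeing the data) they numbered 11 to 15, and those higher in GFP 0 to 1. Members 2-fold apart between sexes in both colours numbered 2, and 0 at 4-fold. Members with at least 10 counts in both tdTomato libraries and at most 3 in GFP numbered 5, and 3 at a minimum of 30 counts. The summed ratio of GFP over tdTomato, 0.224 in the female suspension, was 0.193 by library totals and 0.150 without Hoxb3. The male ratio, 0.346, was 0.407 with DESeq2 size factors, 0.297 by library totals, 0.294 per kilobase and 0.224 without Hoxb3. The mean paralogue number of female GFP was 3.34 without Hoxa5, and that of female tdTomato was 4.29 without a length term. DESeq2 size factors moved the median log2 ratio of GFP over tdTomato of all genes by 0.11 in the female and 0.21 in the male suspension, and library totals by -0.21 and -0.18. Under these scalings no Hox gene with counts in both libraries turned direction between the colours. The cause of these shifts was not tested. Depth limits the genes under 10 counts, and 1 library per sort and sex limits every fold.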
